A study of Homo sapiens with 18 samples.

Results

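The libraries compared were those of passage 1 laggers and of the parental line of MiaPaCa-2, 3 libraries each, chosen by their column names in the deposited count table and making up 6 of the 18 libraries of the series. MiaPaCa-2 is an established human pancreatic cancer line, labelled wild type in every group. Passage 1 laggers were cells of this line that had been injected once into a sciatic nerve and collected as laggers, the counterpart of the leaders that were grown and injected again. The labels call them in vivo cells of passage 1 and do not define how the populations were told apart. The parental cells were never injected and grew in vitro. Passage 1 leaders are used below only where laggers are set against the other cells recovered after that same passage. The labels do not say whether replicates are separate nerves, animals or cultures, so p-values measure the spread between libraries of a group, which may be technical. That spread was estimated over all 18 libraries of the series, not from the 6 compared here alone. They also do not say whether lagger RNA was taken at recovery or after a period of growth, nor in which host the nerves were injected.

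Pancreatic cancer cells often grow along nerves, a route of spread called perineural invasion. In it tumour cells meet Schwann cells, fibroblasts of the nerve sheaths, matrix and axonal factors. Cells moved from culture into a tissue and back commonly change stress, cycling and adhesion genes, and the gene groups described here follow that order: stress, cycling, metabolism, immune presentation, epithelial and matrix genes, and nerve-directed signals.

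Lagger libraries held 15113462 to 21117967 counts assigned to genes, and parental libraries 29005147 to 39373248. Other library measures moved with the groups too. Entries aligned to more than one place were 30.8% ± 2.6 of all entries in laggers and 15.1% ± 1.2 in the parental line, and unaligned entries 8.82% to 16.5% in laggers and 4.09% to 10.1% in the parental line (SD, n = 3 each). Transcripts of the mitochondrial genome took 5.91% to 8.47% of gene counts in laggers, against 0.472% to 0.873% in the parental line. The part of these measures in the gene results was not tested.

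Identity was read first from genes that mark the line. MTAP, which MiaPaCa-2 is known to lack by deletion, had 0 counts in every lagger and every parental library, which allows up to 0.0533 CPM (counts per 1000000 counts, with library sizes scaled by TMM) in laggers and 0.0282 CPM in the parental line. Its neighbour CDKN2A, also deleted in the line, had 0, 0 and 0.420 CPM in laggers, a total of 6 counts in library 3, and 0 counts in parental libraries. VIM, an intermediate filament gene that the line expresses, did not pass the test, with 2260, 1984 and 1960 CPM in laggers, against 1789, 1859 and 1831 CPM in the parental line (log2 fold change 0.18 ± 0.14, adjusted p = 0.324).

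Of 16187 genes tested, 39.3% changed between laggers and the parental line, 21.5% higher and 17.8% lower in laggers. The threshold was an adjusted p under 0.05 by the quasi-likelihood test of edgeR, with the spread estimated over all 18 libraries. A fit of the compared groups only called 3355 genes, against 6363 in this main fit. A change of at least 2-fold was called for 28.5%, 2876 genes higher and 1732 lower, or 3519 and 1213 with the upper quartile scaling given next. The median log2 fold change over all genes tested was 0.09, and every share and median of a gene group below is read beside these. Another scaling, by the upper quartile of each library, kept a similar number of calls but moved the split. It gave 4369 higher and 2051 lower, 68.1% higher against 54.7% with the main scaling, and a median over all genes of 0.30. In bulk libraries, fewer cells that express a gene and less RNA of it per cell cannot be told apart. Apart from IGF2, CD74, HLA-DRA and FBLN2, every gene called and given with its values here had all 3 laggers on the same side of all 3 parental libraries. Such a lack of overlap was common, at 42.8% of all genes tested and 5609 of the called genes. It was also required of the genes named for the smallest p.

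**Figure D1:**
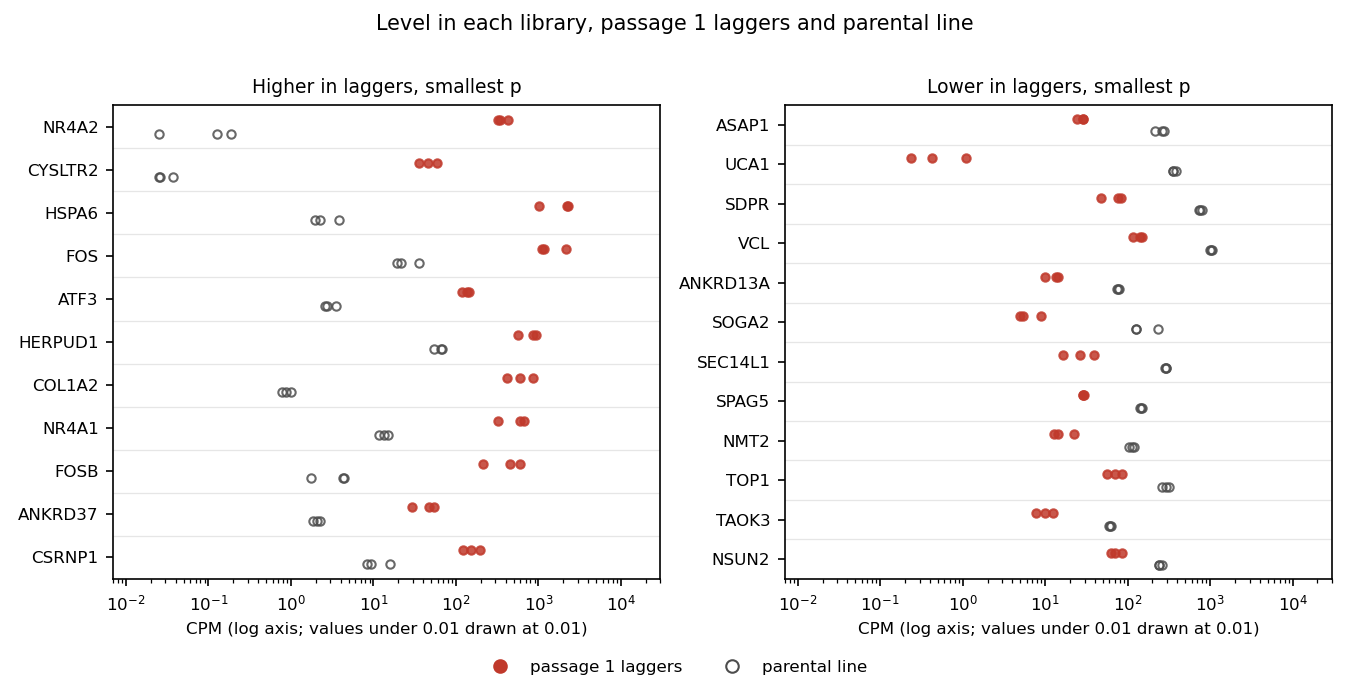
Level of genes from among the 12 higher and the 12 lower in laggers with the smallest p, out of genes whose higher group averaged 20 CPM or more and whose libraries did not overlap. Each point is 1 library on a log axis of CPM, laggers filled and drawn above the parental libraries. CYSLTR2 has 59.4, 45.5 and 35.9 CPM in laggers, against 0.0249, 0.0255 and 0.0370 CPM in the parental line, and SPAG5 has 29.2, 28.4 and 28.7 CPM in laggers, against 141, 147 and 150.4 CPM in the parental line.

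Many of the rising genes that separated the groups most clearly were immediate early genes, such as FOSB and CSRNP1, described below. Those given here belong to other pathways. CYSLTR2 on chromosome 13, a receptor for cysteinyl leukotrienes, had 59.4, 45.5 and 35.9 CPM in laggers, against 0.0249, 0.0255 and 0.0370 CPM in the parental line. Its 3 parental counts in all give a ratio of 1712-fold, with a 95% counting interval of 585 to 8308 (edgeR adjusted p = 4.58e-10). HERPUD1 on chromosome 16, part of the machinery that clears misfolded proteins from the endoplasmic reticulum, had 943, 854 and 565 CPM in laggers, against 66.9, 65.1 and 54.2 CPM in the parental line (log2 fold change 3.67 ± 0.22, adjusted p = 3.42e-08). ANKRD37 on chromosome 4, a small ankyrin repeat gene known as a target of hypoxia-inducible factor, had 29.6, 54.9 and 47.3 CPM in laggers, against 1.84, 2.22 and 2.07 CPM in the parental line (log2 fold change 4.42 ± 0.29, adjusted p = 5.69e-08). The lowest lagger library of each lay far above the highest parental one.

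Among the genes lower in laggers, SDPR on chromosome 2, a cavin that shapes caveolae, had 83.9, 47.9 and 77.1 CPM in laggers, against 758, 797 and 742 CPM in the parental line (log2 fold change -3.46 ± 0.25, adjusted p = 1.43e-07). SOGA2 on chromosome 18, which is linked to microtubule organisation, had 4.96, 5.41 and 8.89 CPM in laggers, against 125, 125 and 233 CPM in the parental line (log2 fold change -4.65 ± 0.38, adjusted p = 3.65e-07). SEC14L1, a lipid transfer protein relative, had 39.1, 16.6 and 26.6 CPM in laggers, against 289, 280.1 and 291 CPM in the parental line (log2 fold change -3.38 ± 0.28, adjusted p = 3.79e-07). SPAG5, a mitotic spindle protein, and TOP1, the DNA topoisomerase that relaxes supercoils, fell by less. SPAG5 had 29.2, 28.4 and 28.7 CPM in laggers, against 141, 147 and 150.4 CPM in the parental line (log2 fold change -2.35 ± 0.19, adjusted p = 4.31e-07). TOP1 had 85.6, 70.1 and 56.5 CPM in laggers, against 262, 318 and 289 CPM in the parental line (log2 fold change -2.03 ± 0.17, adjusted p = 5.77e-07). ANKRD13A (-2.62 ± 0.20), NMT2 (-2.77 ± 0.23), an N-myristoyltransferase, TAOK3 (-2.62 ± 0.23), a kinase of stress signalling, and NSUN2 (-1.75 ± 0.15), an RNA methyltransferase, completed the 12 that fell with the smallest p, with ASAP1, UCA1 and VCL.

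Immediate early genes, which cells transcribe within minutes of a stimulus, rose together in laggers. Of 33 tested, 25 rose, 3 fell and 5 did not pass, with a median log2 fold change of 2.88. Without lagger library 3, 5 fell. FOSB, a subunit of the AP-1 transcription factor, had 210.4, 453 and 602 CPM in laggers, against 4.25, 1.74 and 4.37 CPM in the parental line (log2 fold change 6.94 ± 0.45, adjusted p = 5.69e-08). NR4A3, an orphan nuclear receptor, had 57.1, 43.8 and 49.8 CPM in laggers, against 0.0498, 0.204 and 0.296 CPM in the parental line (log2 fold change 8.13 ± 0.56, adjusted p = 1.02e-07). JUN, the partner of the FOS proteins, had 1104, 1695 and 2637 CPM in laggers, against 306, 223 and 443 CPM in the parental line (log2 fold change 2.48 ± 0.31, adjusted p = 2.36e-05). The 3 genes differed in how they were spread, since FOSB and JUN were lowest in lagger library 1 while NR4A3 was highest there.

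Other members of the same class rose as well. DUSP1, a phosphatase that switches off MAP kinases, had 667, 668 and 1285 CPM in laggers, against 89.1, 85.4 and 116 CPM in the parental line (log2 fold change 3.18 ± 0.25, adjusted p = 2.42e-07). KLF4, a Krüppel-like factor, had 36.9, 36.7 and 36.2 CPM in laggers, against 3.78, 3.65 and 6.25 CPM in the parental line (log2 fold change 3.01 ± 0.30, adjusted p = 2.37e-06), with nearly equal levels in the laggers. PPP1R15A, which brings a phosphatase to the translation factor eIF2 alpha, rose by 3.19 ± 0.27, BTG2 by 3.11 ± 0.23, KLF6 by 2.20 ± 0.20, GADD45B by 2.96 ± 0.26 and EGR1 by 2.36 ± 0.37 on the log2 scale. FOSL1, another FOS family member, went the other way, with 13.1, 3.11 and 19.1 CPM in laggers, against 190.4, 181 and 269 CPM in the parental line (log2 fold change -4.19 ± 0.62, adjusted p = 9.37e-05). CSRNP1, a nuclear protein induced by AXIN1, had 154, 121 and 196 CPM in laggers, against 9.33, 8.30 and 15.7 CPM in the parental line (log2 fold change 3.82 ± 0.26, adjusted p = 1e-07).

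Heat shock genes changed unevenly. Of 25 tested, 11 rose, 2 fell and 12 did not pass, with a median log2 fold change of 0.33, or 0.69 without lagger library 3. HSPA6, an HSP70 that is nearly silent without stress, had 1015, 2222 and 2280 CPM in laggers, against 1.97, 2.25 and 3.81 CPM in the parental line (log2 fold change 9.44 ± 0.50, adjusted p = 8.12e-09). DNAJB1, its HSP40 co-chaperone, had 2152, 2912 and 2863 CPM in laggers, against 389, 332 and 429.6 CPM in the parental line (log2 fold change 2.78 ± 0.20, adjusted p = 1.02e-07). BAG3, a co-chaperone that links HSP70 to autophagy, had 544, 692 and 712 CPM in laggers, against 107, 89.8 and 148 CPM in the parental line (log2 fold change 2.497 ± 0.22, adjusted p = 6.38e-07). HSPB8, a small heat shock protein, had 11.2, 9.53 and 23.0 CPM in laggers, against 0.149, 0 and 0.0370 CPM in the parental line (log2 fold change 7.70 ± 0.88, adjusted p = 9.35e-06). HSPA1B rose by 3.65 ± 0.26 and HSPA1A by 3.91 ± 0.35. These neighbours are nearly identical, and reads that align to both count as aligned to more than 1 place and are left out. Entries of that kind made up 30.8% of all entries in laggers and 15.1% in the parental line. What these genes lost in each group was not measured. HSPA8, the constitutive HSP70, had 2051, 1981 and 1422 CPM in laggers, against 1675, 1610 and 1172 CPM in the parental line and HSP90AB1, the constitutive HSP90, had 1521, 2193 and 1614 CPM in laggers, against 1595, 1613 and 1388 CPM in the parental line, and neither passed (adjusted p = 0.182 and 0.241). HSPA9, the HSP70 of mitochondria, fell, with 669, 528 and 345 CPM in laggers, against 1084, 1145 and 824 CPM in the parental line (log2 fold change -0.99 ± 0.21, adjusted p = 0.00154).

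The promoters of 5 genes are printed because each carries the textbook motif of its group. Windows run from 250 bases before to 50 bases after the annotated start, in RefSeq on GRCh38.p14, are written 5′ to 3′ on the gene's strand, and have the motif in capitals. The motifs are the heat shock element GAANNTTC in HSPA6, the cyclic AMP response element TGACGTCA in DUSP1, the E2F site TTTGGCGC or TTTCCCGC in POLE, the cell cycle homology region TTTGAA in ESPL1 and the interferon element GAAANNGAA in GBP1, each searched on both strands.
HSPA6, chr1:161524290-161524589, plus strand: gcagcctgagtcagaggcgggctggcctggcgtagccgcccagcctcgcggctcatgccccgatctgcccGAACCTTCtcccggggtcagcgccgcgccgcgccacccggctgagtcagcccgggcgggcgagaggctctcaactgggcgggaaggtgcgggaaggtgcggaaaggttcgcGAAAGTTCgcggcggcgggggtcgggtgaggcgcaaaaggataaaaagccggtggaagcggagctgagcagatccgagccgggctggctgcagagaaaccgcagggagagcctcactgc
DUSP1, chr5:172771146-172771445, minus strand: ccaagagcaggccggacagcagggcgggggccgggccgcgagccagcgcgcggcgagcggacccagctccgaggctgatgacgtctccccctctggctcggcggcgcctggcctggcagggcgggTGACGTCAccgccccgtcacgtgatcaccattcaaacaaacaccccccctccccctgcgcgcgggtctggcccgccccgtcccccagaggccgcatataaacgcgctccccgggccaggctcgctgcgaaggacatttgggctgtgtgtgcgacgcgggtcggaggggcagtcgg
POLE, chr12:132687293-132687592, minus strand: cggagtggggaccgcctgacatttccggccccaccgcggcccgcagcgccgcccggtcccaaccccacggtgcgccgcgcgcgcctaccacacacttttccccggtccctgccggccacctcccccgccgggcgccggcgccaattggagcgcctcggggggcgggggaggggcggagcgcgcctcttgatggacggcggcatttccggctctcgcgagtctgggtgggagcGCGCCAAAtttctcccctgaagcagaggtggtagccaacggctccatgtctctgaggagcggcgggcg
ESPL1, chr12:53268049-53268348, plus strand: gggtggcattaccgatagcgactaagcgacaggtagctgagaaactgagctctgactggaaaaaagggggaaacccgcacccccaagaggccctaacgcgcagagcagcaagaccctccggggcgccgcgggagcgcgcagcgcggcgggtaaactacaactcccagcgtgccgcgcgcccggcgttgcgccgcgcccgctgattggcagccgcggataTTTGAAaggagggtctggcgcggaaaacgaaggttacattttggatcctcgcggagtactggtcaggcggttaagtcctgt
GBP1, chr1:89065159-89065458, minus strand: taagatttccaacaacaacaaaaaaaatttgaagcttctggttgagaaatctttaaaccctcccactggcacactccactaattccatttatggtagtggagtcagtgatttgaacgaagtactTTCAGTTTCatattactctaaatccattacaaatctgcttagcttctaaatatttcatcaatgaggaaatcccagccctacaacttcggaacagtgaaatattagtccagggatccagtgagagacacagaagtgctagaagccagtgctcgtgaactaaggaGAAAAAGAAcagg

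The heat shock element stood in the windows of 14 of 23 heat shock genes that have one (60.9%), against 8.21% of all 27305 genes with a window, 9.44% of genes that rose and 6.13% of genes that fell. The cyclic AMP response element stood in 4 of 25 immediate early genes (16%) and in 2.25% of all genes. Lists of such genes are known partly through these motifs, so the shares describe the lists and not the laggers. Only 10156 tested genes have a window, so shares over all genes and over changed genes have unlike bases, here and below. Over all genes with a change, the cyclic AMP response element was in 3.3% of those that rose and 3.39% of those that fell.

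**Figure D2:**
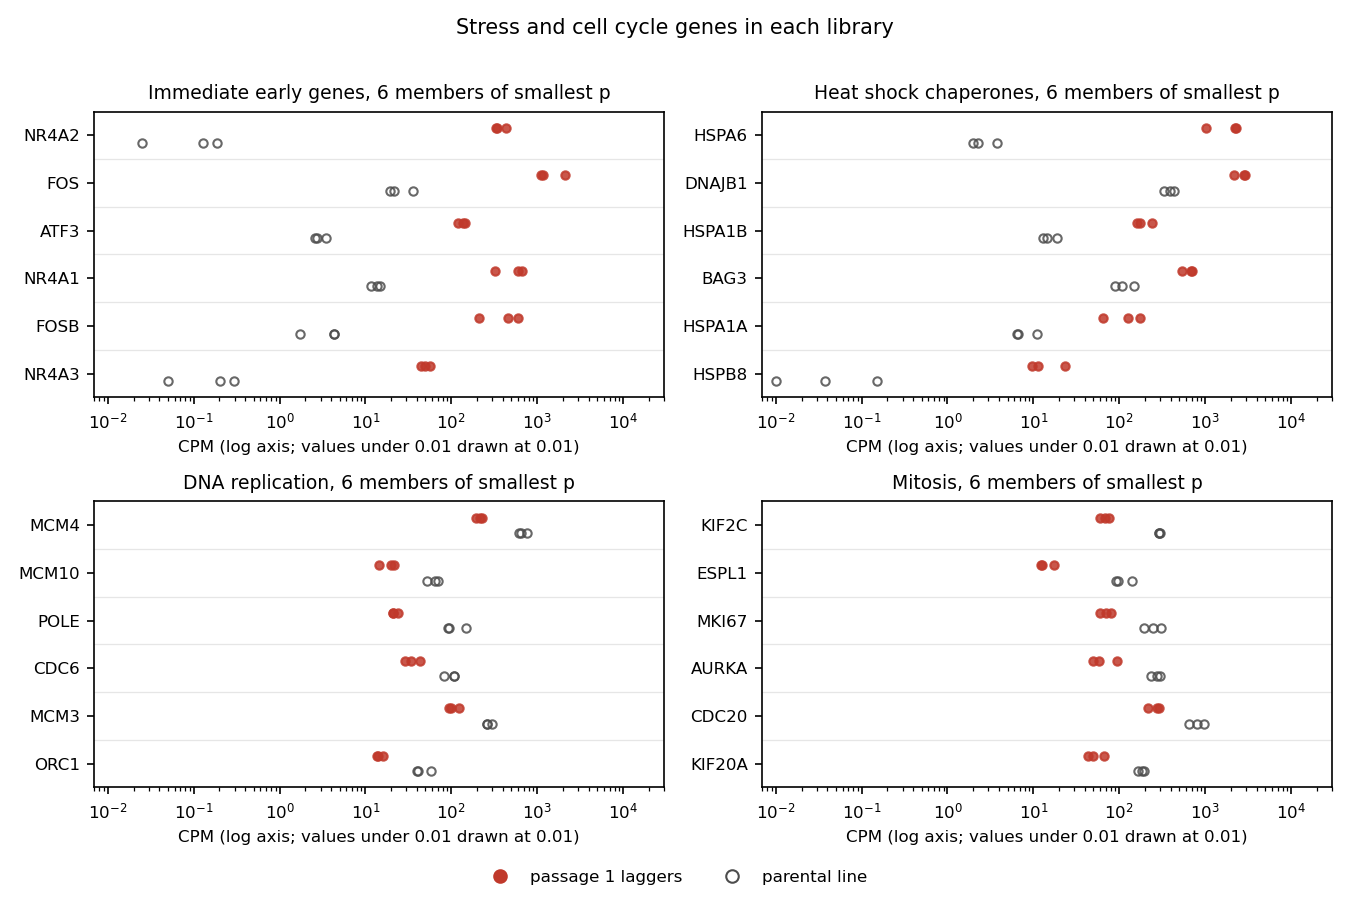
Level in each library of the 6 members with the smallest p from the lists of immediate early genes, heat shock chaperones, DNA replication and mitosis, on a log axis of CPM. Laggers are filled and drawn above the parental libraries. In the upper panels laggers lie to the right, as for HSPA6 with 1015, 2222 and 2280 CPM in laggers, against 1.97, 2.25 and 3.81 CPM in the parental line, and in the lower panels to the left, as for KIF2C with 75.4, 68.5 and 59.6 CPM in laggers, against 290.2, 291 and 296 CPM in the parental line.

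Genes of proliferation were lower in laggers. Of 35 DNA replication genes tested, 28 fell and 7 did not pass, with a median log2 fold change of -1.09. MCM10, which helps the replicative helicase start, had 21.7, 14.6 and 19.96 CPM in laggers, against 52.3, 65.2 and 69.2 CPM in the parental line (log2 fold change -1.73 ± 0.19, adjusted p = 7.14e-06). POLE, the catalytic subunit of leading-strand DNA polymerase epsilon, had 24.1, 20.7 and 21.0 CPM in laggers, against 92.5, 93.7 and 148 CPM in the parental line (log2 fold change -2.34 ± 0.29, adjusted p = 2.29e-05). ORC1, the largest subunit of the origin recognition complex, had 13.7, 13.9 and 16.1 CPM in laggers, against 40.9, 39.8 and 57.5 CPM in the parental line (log2 fold change -1.66 ± 0.23, adjusted p = 4.96e-05). CDC6 fell by 1.49 ± 0.19 on the log2 scale, and MCM3 fell by 1.39 ± 0.18. PCNA, the sliding clamp, was an exception with overlapping groups, at 163, 116 and 76.6 CPM in laggers, against 118, 136 and 70.5 CPM in the parental line (adjusted p = 0.748).

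Of 35 mitosis genes, 26 fell and 9 did not pass, with a median log2 fold change of -1.31. KIF2C, a kinesin that removes wrong spindle attachments, had 75.4, 68.5 and 59.6 CPM in laggers, against 290.2, 291 and 296 CPM in the parental line (log2 fold change -2.11 ± 0.19, adjusted p = 8.51e-07). ESPL1, the separase that cuts sister chromatids apart, had 17.5, 12.3 and 12.5 CPM in laggers, against 90.6, 96.2 and 141 CPM in the parental line (log2 fold change -2.95 ± 0.30, adjusted p = 3.69e-06). CDC20, the activator of the anaphase-promoting complex, had 274, 215 and 293 CPM in laggers, against 798, 657 and 970.3 CPM in the parental line (log2 fold change -1.63 ± 0.20, adjusted p = 2.3e-05). The replication and mitosis genes that were named did not overlap between groups, apart from PCNA, and neither did 42.8% of all genes tested. The E2F site was in 16 of 30 replication gene windows (53.3%, against 2.75% of all genes). It was in 6.27% of all genes that fell, replication genes included, and in 3.4% of those that rose. The cell cycle homology region was in 22 of 30 mitosis gene windows (73.3%, against 18.2%), and in 15.1% both of genes that rose and of genes that fell.

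Inhibitors of cycling were mixed. Of 20 cell cycle inhibitors and genes of the damage response, 6 rose, 2 fell and 12 did not pass, a median of 0.13, and with the replicate numbers as a block 1 fell. Without lagger library 2, 3 rose. CDKN1A, the p21 inhibitor of cyclin-dependent kinases, had 67.6, 149 and 248.6 CPM in laggers, against 12.6, 10.2 and 15.7 CPM in the parental line (log2 fold change 3.597 ± 0.37, adjusted p = 3.7e-06). Its lagger values were spread over a more than 3-fold range. BTG1, an antiproliferative gene, had 41.2, 88.9 and 74.5 CPM in laggers, against 12.3, 11.8 and 8.18 CPM in the parental line (log2 fold change 2.66 ± 0.30, adjusted p = 9.6e-06). CDKN2C, the p18 inhibitor, had 57.9, 42.6 and 40.3 CPM in laggers, against 14.4, 15.1 and 26.9 CPM in the parental line (log2 fold change 1.32 ± 0.27, adjusted p = 0.00109). MDM2, a ubiquitin ligase induced by DNA damage, had 40.9, 31.9 and 15.1 CPM in laggers, against 26.7, 43.4 and 19.1 CPM in the parental line and did not pass (adjusted p = 0.973).

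Branches of the stress response diverged. Of 27 genes of the integrated stress and unfolded protein responses, 12 rose, 4 fell and 11 did not pass, a median of 0.28 that was 0.49 without lagger library 1 and 0.48 without library 3. XBP1, the transcription factor spliced by the sensor IRE1, had 373, 485 and 347 CPM in laggers, against 149.6, 152 and 127 CPM in the parental line (log2 fold change 1.49 ± 0.17, adjusted p = 9.33e-06). HSPA5, the main chaperone of the endoplasmic reticulum, had 1915, 2361 and 1733 CPM in laggers, against 892, 859 and 747 CPM in the parental line (log2 fold change 1.27 ± 0.15, adjusted p = 1.29e-05). DDIT3, also called CHOP, had 27.4, 41.1 and 36.1 CPM in laggers, against 7.79, 5.57 and 2.996 CPM in the parental line (log2 fold change 2.67 ± 0.39, adjusted p = 9.61e-05). DDIT4, an inhibitor of mTORC1, had 518, 702 and 917 CPM in laggers, against 89.8, 68.5 and 123 CPM in the parental line (log2 fold change 2.92 ± 0.25, adjusted p = 5.31e-07). ASNS and TRIB3, both known to respond to amino acid shortage, fell instead. ASNS, asparagine synthetase, had 29.7, 25.2 and 31.1 CPM in laggers, against 122, 129 and 79.5 CPM in the parental line (log2 fold change -1.94 ± 0.26, adjusted p = 4.02e-05). TRIB3 had 47.6, 30.8 and 51.7 CPM in laggers, against 149, 128 and 194 CPM in the parental line (log2 fold change -1.86 ± 0.26, adjusted p = 6.68e-05).

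Amino acid genes went with those 2. Of 23 genes of amino acid transport and synthesis, 15 fell, 1 rose and 7 did not pass, a median of -0.81, and of 20 cytosolic aminoacyl-tRNA synthetases 8 fell and 12 did not pass, a median of -0.47 that was -0.27 without lagger library 3. SLC7A1, a carrier of arginine and lysine, had 28.2, 27.8 and 41.7 CPM in laggers, against 112, 126 and 178 CPM in the parental line (log2 fold change -2.09 ± 0.23, adjusted p = 7.97e-06). SLC7A11, the cystine carrier that feeds glutathione synthesis, had 17.1, 9.53 and 8.54 CPM in laggers, against 59.6, 94.6 and 51.6 CPM in the parental line (log2 fold change -2.55 ± 0.43, adjusted p = 0.000297). YARS and AARS, which charge the tRNAs of tyrosine and alanine, had log2 fold changes of -1.35 ± 0.18 and -1.34 ± 0.18. With offsets for transcript length and GC content, 15 synthetases fell.

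Sterol and fatty acid genes differed. Of 23 cholesterol synthesis genes, 7 rose, 1 fell and 15 did not pass, a median of 0.63. The gene that fell lost its call with the replicate block. The count of rising genes depended on the setting, with 16 rising under upper quartile scaling, 12 without lagger library 1 and 12 with length and GC offsets. PMVK, phosphomevalonate kinase, had 131, 144 and 183 CPM in laggers, against 55.7, 49.0 and 64.3 CPM in the parental line (log2 fold change 1.44 ± 0.20, adjusted p = 5.18e-05). SQLE, squalene epoxidase, rose by 1.06 ± 0.17 and INSIG1, which retains the sterol sensor, by 1.29 ± 0.27. Of 22 genes of fatty acid synthesis and lipid handling, 13 fell, 1 rose and 8 did not pass, a median of -0.83, with 8 falling under upper quartile scaling and 8 with offsets. ACLY, which makes cytosolic acetyl-CoA, had 248, 299 and 339 CPM in laggers, against 719.9, 728 and 833 CPM in the parental line (log2 fold change -1.37 ± 0.18, adjusted p = 3.24e-05). CPT1A, which admits fatty acids to mitochondria, had 7.13, 3.98 and 6.44 CPM in laggers, against 22.7, 22.3 and 19.5 CPM in the parental line (log2 fold change -1.88 ± 0.31, adjusted p = 0.000242). The nuclear receptor PPARG, which promotes fat storage, had 1.18, 0.527 and 0.981 CPM in laggers, against 44.8, 45.1 and 37.4 CPM in the parental line (log2 fold change -5.56 ± 0.64, adjusted p = 1.02e-05).

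Hypoxia and glycolysis genes moved both ways. Of 35 tested, 5 rose, 14 fell and 16 did not pass, a median of -0.32 that was -0.22 without lagger library 1, and under upper quartile scaling 9 fell. ADM, the vasodilator adrenomedullin, had 97.9, 95.7 and 199 CPM in laggers, against 1.54, 0.562 and 2.40 CPM in the parental line (log2 fold change 6.46 ± 0.52, adjusted p = 3.21e-07). SLC2A3, the glucose carrier GLUT3, had 306, 279 and 227 CPM in laggers, against 59.9, 67.8 and 59.9 CPM in the parental line (log2 fold change 2.11 ± 0.18, adjusted p = 6.14e-07). HK2, hexokinase 2, had 7.18, 10.7 and 11.8 CPM in laggers, against 54.4, 57.7 and 57.4 CPM in the parental line (log2 fold change -2.52 ± 0.32, adjusted p = 2.52e-05). HIF1A, the oxygen-regulated factor itself, had 138, 173 and 102 CPM in laggers, against 466, 628 and 317 CPM in the parental line (log2 fold change -1.78 ± 0.32, adjusted p = 0.000509). The pyruvate kinase PKM fell by 1.02 ± 0.17 on the log2 scale, and the carbonic anhydrase CA12 fell by 3.98 ± 0.73, while VEGFA (0.18 ± 0.31, adjusted p = 0.677) and LDHA (0.43 ± 0.25, adjusted p = 0.181) did not pass.

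Of 30 oxidative defence and drug efflux genes, 13 fell, 3 rose and 14 did not pass, a median of -0.62 that was -0.40 without lagger library 3, with 6 rising under upper quartile scaling. ABCC2, an efflux pump for conjugated compounds, had 2.55, 0.287 and 1.05 CPM in laggers, against 27.7, 35.5 and 33.6 CPM in the parental line (log2 fold change -4.62 ± 0.82, adjusted p = 0.000426). Its relative ABCC3 had 11.3, 1.87 and 12.1 CPM in laggers, against 63.2, 66.9 and 83.7 CPM in the parental line (log2 fold change -3.09 ± 0.58, adjusted p = 0.000671). NQO1, a quinone reductase, had 417, 172 and 286 CPM in laggers, against 844, 846 and 586 CPM in the parental line (log2 fold change -1.38 ± 0.27, adjusted p = 0.00094). The metallothioneins, which bind zinc and copper, ran the other way: of 9 tested, 6 rose and 3 did not pass, a median of 1.32, or 0.59 with length and GC offsets, with which 4 rose. Their sequences are close to each other, so reads that align to several of them are left out. MT1X had 148, 109 and 203 CPM in laggers, against 32.0, 20.5 and 25.2 CPM in the parental line (log2 fold change 2.57 ± 0.32, adjusted p = 2.03e-05).

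Genes of ribosomes and of respiration rose broadly. Of 77 cytosolic ribosomal protein genes, 76 rose and 1 did not pass, a median of 1.58, and of 49 nuclear respiratory chain genes 33 rose, 4 fell and 12 did not pass, a median of 1.11. All 13 protein genes of the mitochondrial genome rose without length offsets, a median of 2.95. Many ribosomal protein genes have near-identical processed pseudogenes, and reads that align to both are left out. RPS29, a protein of the small subunit, had 124, 100.3 and 117 CPM in laggers, against 20.8, 13.6 and 10.6 CPM in the parental line (log2 fold change 2.92 ± 0.31, adjusted p = 5.43e-06). NDUFA1, a small subunit of complex I, had 126, 96.3 and 79.5 CPM in laggers, against 22.6, 16.7 and 11.95 CPM in the parental line (log2 fold change 2.56 ± 0.33, adjusted p = 2.83e-05). MT-CO1, the mitochondrially encoded core of complex IV, had 6645, 6342 and 4609 CPM in laggers, against 1068, 999 and 726 CPM in the parental line (log2 fold change 2.66 ± 0.29, adjusted p = 5.39e-06). A list of 12 regulators of mitochondria, HIF and PPARGC1 genes among them, did not follow: 6 fell and 6 did not pass, a median of -0.78. LONP1, a matrix protease, had 241, 247 and 329 CPM in laggers, against 709, 609.8 and 1052 CPM in the parental line (log2 fold change -1.54 ± 0.22, adjusted p = 8.27e-05), POLG, the mitochondrial DNA polymerase, had 40.8, 62.2 and 43.4 CPM in laggers, against 129.8, 121 and 219.5 CPM in the parental line (log2 fold change -1.69 ± 0.27, adjusted p = 0.00019). PPARGC1B, a coactivator of respiratory genes, had 4.02, 11.3 and 8.68 CPM in laggers, against 23.1, 24.6 and 37.0 CPM in the parental line (log2 fold change -1.82 ± 0.48, adjusted p = 0.00676).

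Transcript length moved with these lists. Among 15793 tested genes with a known length, those in the shortest of 5 classes of equal size (longest transcript of 75 to 1729 bases) rose in 37.7% and fell in 3.73% of cases, a median log2 fold change of 0.80, while those in the longest class rose in 14.5% and fell in 27.1%, a median of -0.24. The shortest class held 35 of the ribosomal, 25 of the nuclear respiratory, 12 of the mitochondrially encoded and 12 of the 14 S100 genes. With offsets for length and GC content, chosen after the data had been seen, the medians of these classes were 0.11 and -0.01. The offsets are curves fitted to these same libraries by length and GC content, so smaller medians by class follow from how they are built. Under these offsets 69 ribosomal genes rose (median 1.32), 27 nuclear respiratory genes rose and 8 fell (median 0.77), and 12 mitochondrially encoded genes rose (median 1.97). The remaining part of length in these groups was not tested.

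**Figure D3:**
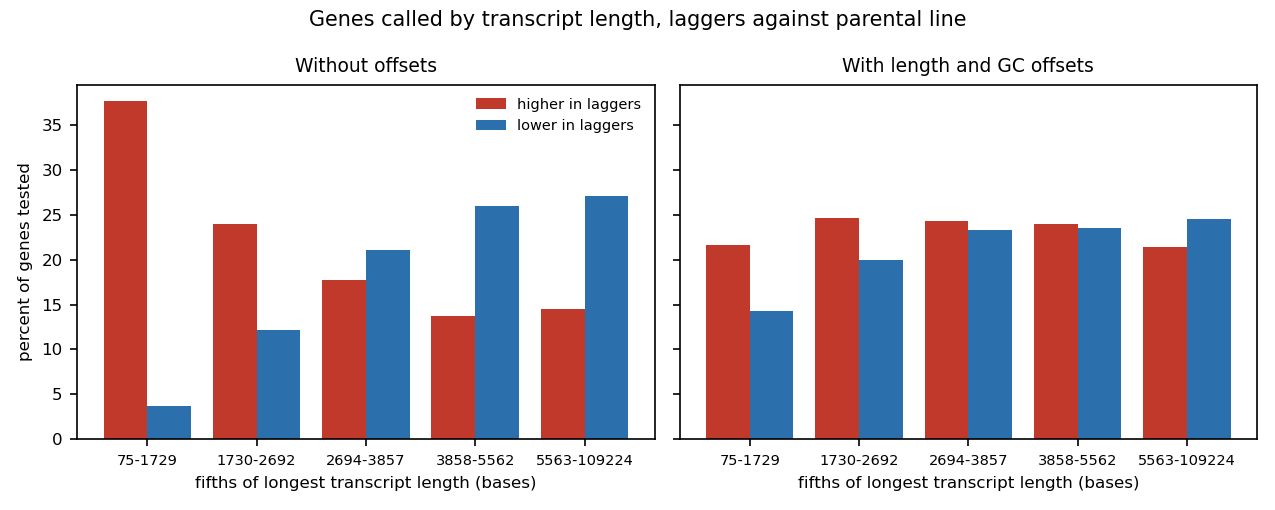
Percent of tested genes that rose and fell in laggers relative to the parental line, by 5 equal classes of longest annotated transcript length in bases, without offsets on the left and with offsets for length and GC content on the right. In the shortest class 37.7% are higher and 3.73% lower without offsets. With them the higher and lower shares lie closer together in the shortest and the longest class. The offsets are fitted to remove such a trend.

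Genes that present antigen to CD8 T cells rose. Of 22 class I presentation and immunoproteasome genes, 17 rose and 5 did not pass, a median of 2.02. Without lagger library 1 the median was 0.90, and 1 member fell. HLA-B, a class I heavy chain on chromosome 6, had 1102, 254 and 546 CPM in laggers, against 88.5, 63.8 and 85.8 CPM in the parental line (log2 fold change 2.998 ± 0.39, adjusted p = 3.25e-05). B2M, the light chain, had 2132, 614 and 595 CPM in laggers, against 169.9, 154 and 64.8 CPM in the parental line (log2 fold change 3.10 ± 0.48, adjusted p = 0.000146). Both were highest in lagger library 1. TAP1, the peptide transporter, had 109, 53.1 and 99.5 CPM in laggers, against 82.4, 70.0 and 104.9 CPM in the parental line and NLRC5, the class I transactivator, had 16.8, 2.97 and 10.4 CPM in laggers, against 5.92, 7.15 and 9.36 CPM in the parental line, and neither passed (adjusted p = 0.955 and 0.583). Class I genes are nearly identical in long stretches, so reads that align to several of them are left out.

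Class II genes, used mainly by professional antigen-presenting cells, rested on lagger library 1. Of 12 tested, 10 rose and 2 did not pass, but without that library 3 rose, with the median at 1.03 and not 3.25. Their summed level was 310.9, 17.6 and 31.2 CPM in laggers, against 10.4, 6.92 and 6.95 CPM in the parental line. CD74, the invariant chain, had 149, 0.479 and 3.64 CPM in laggers, against 1.92, 1.63 and 1.55 CPM in the parental line (log2 fold change 4.91 ± 1.25, adjusted p = 0.00571). Without lagger library 1 its log2 fold change was 0.14, adjusted p = 0.883. HLA-DRA had 41.3, 0.287 and 0.140 CPM in laggers, against 0.672, 0.306 and 0.0740 CPM in the parental line (log2 fold change 5.23 ± 1.38, adjusted p = 0.00705). Without library 1 -0.72, adjusted p = 0.569. CIITA, which switches class II genes on, had 4.68, 0.623 and 0.140 CPM in laggers, against 0.796, 0.409 and 0.0370 CPM in the parental line and did not pass (adjusted p = 0.113).

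Of 38 genes of the interferon response, 24 rose, 13 did not pass and 1 fell, a median of 2.21. GBP2, a guanylate-binding protein induced by interferon gamma, had 10.2, 3.64 and 13.0 CPM in laggers, against 0, 0 and 0.0370 CPM in the parental line, a ratio of 901-fold, with a 95% counting interval of 161 to 35670, over 1 parental count (adjusted p = 4.16e-07). IRF1, an interferon regulatory factor, had 218, 117 and 127 CPM in laggers, against 26.6, 23.0 and 30.4 CPM in the parental line (log2 fold change 2.53 ± 0.36, adjusted p = 7.74e-05). IFITM3, which blocks virus entry, had 174, 200.2 and 343 CPM in laggers, against 57.8, 43.1 and 54.4 CPM in the parental line (log2 fold change 2.21 ± 0.30, adjusted p = 4.1e-05). GBP1, whose promoter is printed above, had 103, 4.79 and 9.03 CPM in laggers, against 0.0249, 0 and 0 CPM in the parental line (adjusted p = 2.97e-05), a ratio of 4564-fold, with a 95% counting interval of 818 to 180400, and of 693-fold without library 1. The interferon element was in 24 of 33 windows of the list (72.7%, against 9.86% of all genes), in 10.9% of genes that rose and 8.12% of those that fell.

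Of 22 receptors and regulators of interferon and JAK-STAT signalling, 6 rose, 3 fell and 13 did not pass, a median of 0.04. SOCS1, a feedback inhibitor of JAK kinases, had 12.9, 13.1 and 34.7 CPM in laggers, against 1.79, 1.28 and 1.18 CPM in the parental line (log2 fold change 3.82 ± 0.43, adjusted p = 7.79e-06). SOCS3 had 114, 280.3 and 358 CPM in laggers, against 71.0, 61.1 and 105.3 CPM in the parental line (log2 fold change 1.66 ± 0.32, adjusted p = 0.000871). Of 24 NF-kB and inflammatory genes, 9 rose, 4 fell and 11 did not pass, a median of 0.83, and without lagger library 3, 6 rose and 7 fell. NFKBIZ, an atypical nuclear IkB, had 53.9, 65.1 and 46.6 CPM in laggers, against 3.91, 4.49 and 5.81 CPM in the parental line (log2 fold change 3.55 ± 0.33, adjusted p = 1.39e-06). The factor genes themselves fell, NFKB1 with 53.2, 55.4 and 44.3 CPM in laggers, against 107, 100.6 and 124 CPM in the parental line (log2 fold change -1.12 ± 0.25, adjusted p = 0.00213) and NFKB2 with 27.6, 40.8 and 45.2 CPM in laggers, against 111, 88.5 and 175 CPM in the parental line (log2 fold change -1.72 ± 0.38, adjusted p = 0.00224). IL32, a cytokine without a mouse counterpart, had 13.1, 90.7 and 83.8 CPM in laggers, against 2.31, 1.61 and 1.74 CPM in the parental line (log2 fold change 5.04 ± 0.81, adjusted p = 0.000189), with library 1 well under the other laggers.

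Of 17 complement genes, 11 rose and 6 did not pass, a median of 2.20. CLU, clusterin, had 3621, 3095 and 1504 CPM in laggers, against 155, 139.9 and 191 CPM in the parental line (log2 fold change 4.08 ± 0.48, adjusted p = 1.29e-05). C1S, a protease of the classical pathway, had 171, 188 and 199 CPM in laggers, against 70.9, 60.3 and 50.1 CPM in the parental line (log2 fold change 1.62 ± 0.29, adjusted p = 0.000447). Its partner C1R had 64.9, 39.2 and 83.1 CPM in laggers, against 14.4, 12.8 and 22.0 CPM in the parental line (log2 fold change 1.93 ± 0.44, adjusted p = 0.00288). Of 15 chemokine and receptor genes, 5 rose and 10 did not pass, a median of 0.98, or 0.66 with the 3 members at 0 in a group set at their bound. The first of these medians was 0.65 without lagger library 1 and 0.46 without library 3. CXCR4, the receptor of CXCL12, had 1.70, 4.74 and 4.41 CPM in laggers, against 0.0746, 0 and 0 CPM in the parental line, a ratio of 125-fold, with a 95% counting interval of 42.1 to 609.8 over 3 parental counts (adjusted p = 9.64e-05).

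Of 24 keratins tested, 15 rose and 9 did not pass, a median log2 fold change of 5.43, or 4.11 with the 7 members that had no count in a group set at their bound. Without lagger library 2 the median was 3.27. KRT7, a keratin of simple and ductal epithelium, had 309, 496 and 611 CPM in laggers, against 9.06, 4.72 and 6.92 CPM in the parental line (log2 fold change 6.10 ± 0.45, adjusted p = 1.45e-07). Several keratins of stratified epithelium rose from almost no counts. KRT5 had 80.7, 549 and 375 CPM in laggers, against 0.0498, 0.255 and 0.407 CPM in the parental line (log2 fold change 10.52 ± 1.04, adjusted p = 2.61e-06), KRT17 had 112, 786 and 352 CPM in laggers, against 0.373, 0.434 and 0.0740 CPM in the parental line (log2 fold change 10.37 ± 1.06, adjusted p = 3.64e-06). KRT16 had 27.0, 124 and 105.3 CPM in laggers, against 0.0995, 0.0255 and 0.0740 CPM in the parental line (log2 fold change 10.23 ± 1.15, adjusted p = 8.14e-06). KRT14, the usual partner of KRT5, had 2.46, 2.92 and 10.4 CPM in laggers, against 0, 0 and 0 CPM in the parental line, at least 165-fold higher, or at least 95.3-fold without library 3 (adjusted p = 0.000346). KRT5, KRT14, KRT16 and KRT17 were lowest in lagger library 1. Their groups did not overlap, which was also so for 42.8% of all genes tested. KRT8, already abundant in the line, had 6673, 4891 and 7309 CPM in laggers, against 2362, 1910 and 3124 CPM in the parental line (log2 fold change 1.35 ± 0.29, adjusted p = 0.00182). Its partner KRT18 rose by 1.27 ± 0.30. KRT19 had 528, 1063 and 1607 CPM in laggers, against 649, 504 and 813 CPM in the parental line and did not pass (adjusted p = 0.152).

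Other epithelial genes were less uniform. Of 25 junction and identity genes, 7 rose, 2 fell and 16 did not pass, a median of 0.86, and with the replicate block 1 fell. Without lagger library 2 the median was 0.04. TJP3, a tight junction scaffold, had 0.283, 1.01 and 0.0700 CPM in laggers, against 13.5, 9.19 and 26.8 CPM in the parental line (log2 fold change -5.11 ± 0.77, adjusted p = 0.000114). EHF, an epithelial ETS factor, had 3.83, 6.13 and 8.33 CPM in laggers, against 0, 0 and 0 CPM in the parental line, at least 207-fold higher (adjusted p = 0.002). CDH1, E-cadherin, had 0, 0.335 and 1.12 CPM in laggers, against 0, 0 and 0 CPM in the parental line. It had 23 lagger counts in all and did not pass (adjusted p = 0.0557). Of 14 S100 calcium-binding proteins, 13 rose and 1 did not pass, a median of 3.27, or 3.07 with 1 member at its bound, and 10 rose with length and GC offsets (median 2.79). S100A2 had 574, 559 and 797 CPM in laggers, against 21.0, 14.0 and 13.2 CPM in the parental line (log2 fold change 5.32 ± 0.47, adjusted p = 8.51e-07). S100A4, often used as a mesenchymal marker, had 1697, 1281 and 2260 CPM in laggers, against 154, 102 and 117 CPM in the parental line (log2 fold change 3.81 ± 0.37, adjusted p = 2.2e-06).

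Of 14 mesenchymal regulators and markers, 6 rose, 3 fell and 5 did not pass, a median of 0.41, or 0.17 without lagger library 3. SNAI1, a repressor of E-cadherin, had 24.1, 44.3 and 47.5 CPM in laggers, against 13.2, 10.6 and 16.2 CPM in the parental line (log2 fold change 1.53 ± 0.34, adjusted p = 0.00228). CDH2, N-cadherin, had 1.04, 5.37 and 9.24 CPM in laggers, against 0, 0 and 0 CPM in the parental line, at least 168-fold higher, or at least 113-fold without library 3 (adjusted p = 0.00177). Surface markers of the same list fell: NT5E, the ecto-nucleotidase CD73, had 12.7, 6.47 and 12.5 CPM in laggers, against 200.1, 248.8 and 123 CPM in the parental line (log2 fold change -4.18 ± 0.76, adjusted p = 0.000505). CD44, the hyaluronan receptor, had 263, 95.1 and 151 CPM in laggers, against 750.3, 923 and 533 CPM in the parental line (log2 fold change -2.12 ± 0.43, adjusted p = 0.0011). ZEB1 had 45.9, 31.0 and 17.4 CPM in laggers, against 46.2, 49.1 and 28.8 CPM in the parental line and did not pass (adjusted p = 0.32).

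Matrix genes rose and fell, the collagen chains in shares near those over all genes tested (21.5% higher and 17.8% lower). Of 22 collagen chains tested, 3 rose, 4 fell and 15 did not pass, a median of -0.05, which turned to 0.40 with length and GC offsets, with 7 rising. It was 0.27 without lagger library 1, with 5 rising, 0.21 without library 2 and -0.93 without library 3. COL1A2, a chain of type I collagen, had 603, 414 and 865 CPM in laggers, against 0.995, 0.868 and 0.777 CPM in the parental line (log2 fold change 9.46 ± 0.58, adjusted p = 3.42e-08). COL17A1, a hemidesmosome collagen, had 11.95, 7.95 and 32.4 CPM in laggers, against 112, 98.4 and 183 CPM in the parental line (log2 fold change -2.92 ± 0.45, adjusted p = 0.000131). COL18A1, the precursor of endostatin, had 14.2, 27.4 and 47.3 CPM in laggers, against 218, 237 and 487 CPM in the parental line (log2 fold change -3.41 ± 0.52, adjusted p = 0.000132). COL1A1 had 17.7, 9.82 and 118 CPM in laggers, against 111, 128 and 240.3 CPM in the parental line, overlapping groups (adjusted p = 0.252). Of 25 other matrix genes, 11 rose, 2 fell and 12 did not pass, a median of 1.10, or 0.64 without lagger library 3. FN1, fibronectin, had 88.7, 3.11 and 172 CPM in laggers, against 0.547, 0.587 and 1.37 CPM in the parental line (log2 fold change 6.75 ± 1.18, adjusted p = 0.000392). The lagger values spanned more than 50-fold. FBN1, fibrillin 1, had 20.7, 21.3 and 21.0 CPM in laggers, against 1.42, 3.22 and 0.703 CPM in the parental line (log2 fold change 3.54 ± 0.49, adjusted p = 5.65e-05), nearly equal in the laggers. SPARC, a matrix-binding glycoprotein, had 84.99, 78.2 and 404 CPM in laggers, against 12.8, 14.3 and 15.9 CPM in the parental line (log2 fold change 3.72 ± 0.74, adjusted p = 0.00103). LOXL2, a collagen crosslinker, had 169.9, 122 and 339.9 CPM in laggers, against 847, 726 and 1028 CPM in the parental line (log2 fold change -2.04 ± 0.36, adjusted p = 0.000413).

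Some of these matrix genes are also markers of fibroblasts, so markers of the other cells a nerve holds were read. The fibroblast and perineurial list summed to 1442, 1716 and 2450 CPM in laggers, against 325.6, 347.9 and 485 CPM in the parental line, with 5 of 10 tested members higher and 5 not passing. COL1A2 and COL3A1, with 619, 849 and 1162 CPM of COL3A1 in laggers and 6.42, 4.54 and 10.3 CPM in the parental line, made up most of the lagger sums. The other members that rose were low, LUM at 17.2, 5.56 and 2.45 CPM in laggers, DCN at 11.2, 11.98 and 4.97 CPM and PDGFRA at 5.15, 1.87 and 0.560 CPM, while DPT had 0 counts in both groups and FAP had 1 lagger count. Schwann cell markers summed to 54.8, 61.0 and 59.5 CPM in laggers, against 241.7, 248 and 290.8 CPM in the parental line, of which MBP made up 199.5, 207 and 235 CPM. Of 7 tested, 2 rose, 2 fell and 3 did not pass, and without lagger library 2, 1 rose. EGR2, which is also an immediate early gene, had 6.94, 14.6 and 10.7 CPM in laggers, against 0.124, 0 and 0 CPM in the parental line (log2 fold change 7.73 ± 0.76, adjusted p = 2.57e-06). CDH19, a cadherin of Schwann cell precursors, had 0.425, 2.97 and 0.210 CPM in laggers, against 0, 0 and 0 CPM in the parental line, at least 46.6-fold higher, or at least 12.01-fold without library 2 (adjusted p = 0.011 with all libraries and 0.0546 without library 2). S100B had 2 lagger counts, and NCAM1 had 0 in both groups.

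Leukocyte markers summed to 20.1, 59.6 and 38.4 CPM in laggers, against 4.20, 3.12 and 6.44 CPM in the parental line. MS4A6A made up 17.0, 48.2 and 32.5 CPM of the lagger sums, while PTPRC, the common leukocyte antigen, had 0 counts in laggers and in the parental line. Endothelial markers summed to 136.7, 105.1 and 289 CPM in laggers and 379, 310.7 and 580.2 CPM in the parental line, and muscle markers to 16.8, 403 and 94.9 CPM in laggers and 6.99, 7.48 and 4.70 CPM in the parental line. Muscle sums came largely from MB, TNNT3 and TNNI2. TNNT3, a fast muscle troponin, had 3.07, 50.5 and 35.0 CPM in laggers, against 0.0249, 0 and 0 CPM in the parental line. Neuron markers summed to 11.1 to 24.6 CPM in laggers and 8.09 to 10.6 CPM in the parental line, erythroid ones to 0.709 to 3.29 CPM in laggers and 0.423 to 1.55 CPM in the parental line, and adipocyte ones to 45.2 to 65.2 CPM in laggers and 76.8 to 101.2 CPM in the parental line. The part of other cells in the matrix and immune results was not tested.

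Of 38 actin and focal adhesion genes, 19 fell, 6 rose and 13 did not pass, a median of -0.59. PXN, the focal adhesion adaptor paxillin, had 48.2, 42.1 and 76.8 CPM in laggers, against 368, 347 and 516 CPM in the parental line (log2 fold change -2.88 ± 0.30, adjusted p = 4.13e-06). The alpha-actinins ACTN1 and ACTN4 changed by -1.80 ± 0.28 and -1.89 ± 0.29, and the crosslinker FLNA by -2.20 ± 0.33, on the log2 scale, while ACTB, beta-actin, had 24190, 21530 and 27900 CPM in laggers, against 24200, 21830 and 29400 CPM in the parental line and did not pass (adjusted p = 0.869). Of 21 YAP and TEAD targets, 11 fell, 1 rose and 9 did not pass, a median of -0.81. MYOF, a membrane repair protein, had 128, 119 and 87.5 CPM in laggers, against 405, 450.3 and 416 CPM in the parental line (log2 fold change -1.93 ± 0.19, adjusted p = 2.34e-06). CRIM1, a transmembrane binder of growth factors, had 81.6, 19.4 and 62.6 CPM in laggers, against 276, 286 and 389.5 CPM in the parental line (log2 fold change -2.54 ± 0.38, adjusted p = 0.000113). The target CTGF rose instead, with 6.47, 24.2 and 52.0 CPM in laggers, against 0.796, 0.460 and 0.518 CPM in the parental line (log2 fold change 5.52 ± 1.19, adjusted p = 0.00186).

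Of 18 integrins, 5 rose, 3 fell and 10 did not pass, a median of 0.70, which was close to 0 without lagger library 2 and 0.28 without library 3. ITGA6, the alpha chain of laminin receptors, had 107, 198 and 73.8 CPM in laggers, against 9.16, 14.8 and 11.2 CPM in the parental line (log2 fold change 3.43 ± 0.51, adjusted p = 0.000109). ITGAV, the alpha chain of fibronectin and vitronectin receptors, had 86.9, 60.7 and 54.5 CPM in laggers, against 169, 274 and 142 CPM in the parental line (log2 fold change -1.53 ± 0.32, adjusted p = 0.00156). Of 11 laminins, 2 rose, 3 fell and 6 did not pass, a median of 0.29, with 6 rising under length and GC offsets. It was 0.46 without lagger library 1 and 0.01 without library 3, and 4 rose without library 2. LAMA4, a chain of vessel and nerve laminins, had 1.80, 1.44 and 8.75 CPM in laggers, against 51.1, 51.0 and 56.5 CPM in the parental line (log2 fold change -3.75 ± 0.75, adjusted p = 0.00107). Of 15 matrix metalloproteases and inhibitors, 3 rose, 5 fell and 7 did not pass, a median of 0.51 that was -0.62 without lagger library 3. MMP1, interstitial collagenase, had 0.614, 0.240 and 0 CPM in laggers, against 7.51, 6.03 and 4.14 CPM in the parental line (log2 fold change -4.28 ± 1.23, adjusted p = 0.0133). Of 11 plasminogen system genes, 3 rose, 2 fell and 6 did not pass, a median of 0.00. PLAT, tissue plasminogen activator, had 156, 84.8 and 541 CPM in laggers, against 0.921, 0.357 and 0.222 CPM in the parental line (log2 fold change 8.96 ± 0.87, adjusted p = 2.29e-06).

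**Figure D4:**
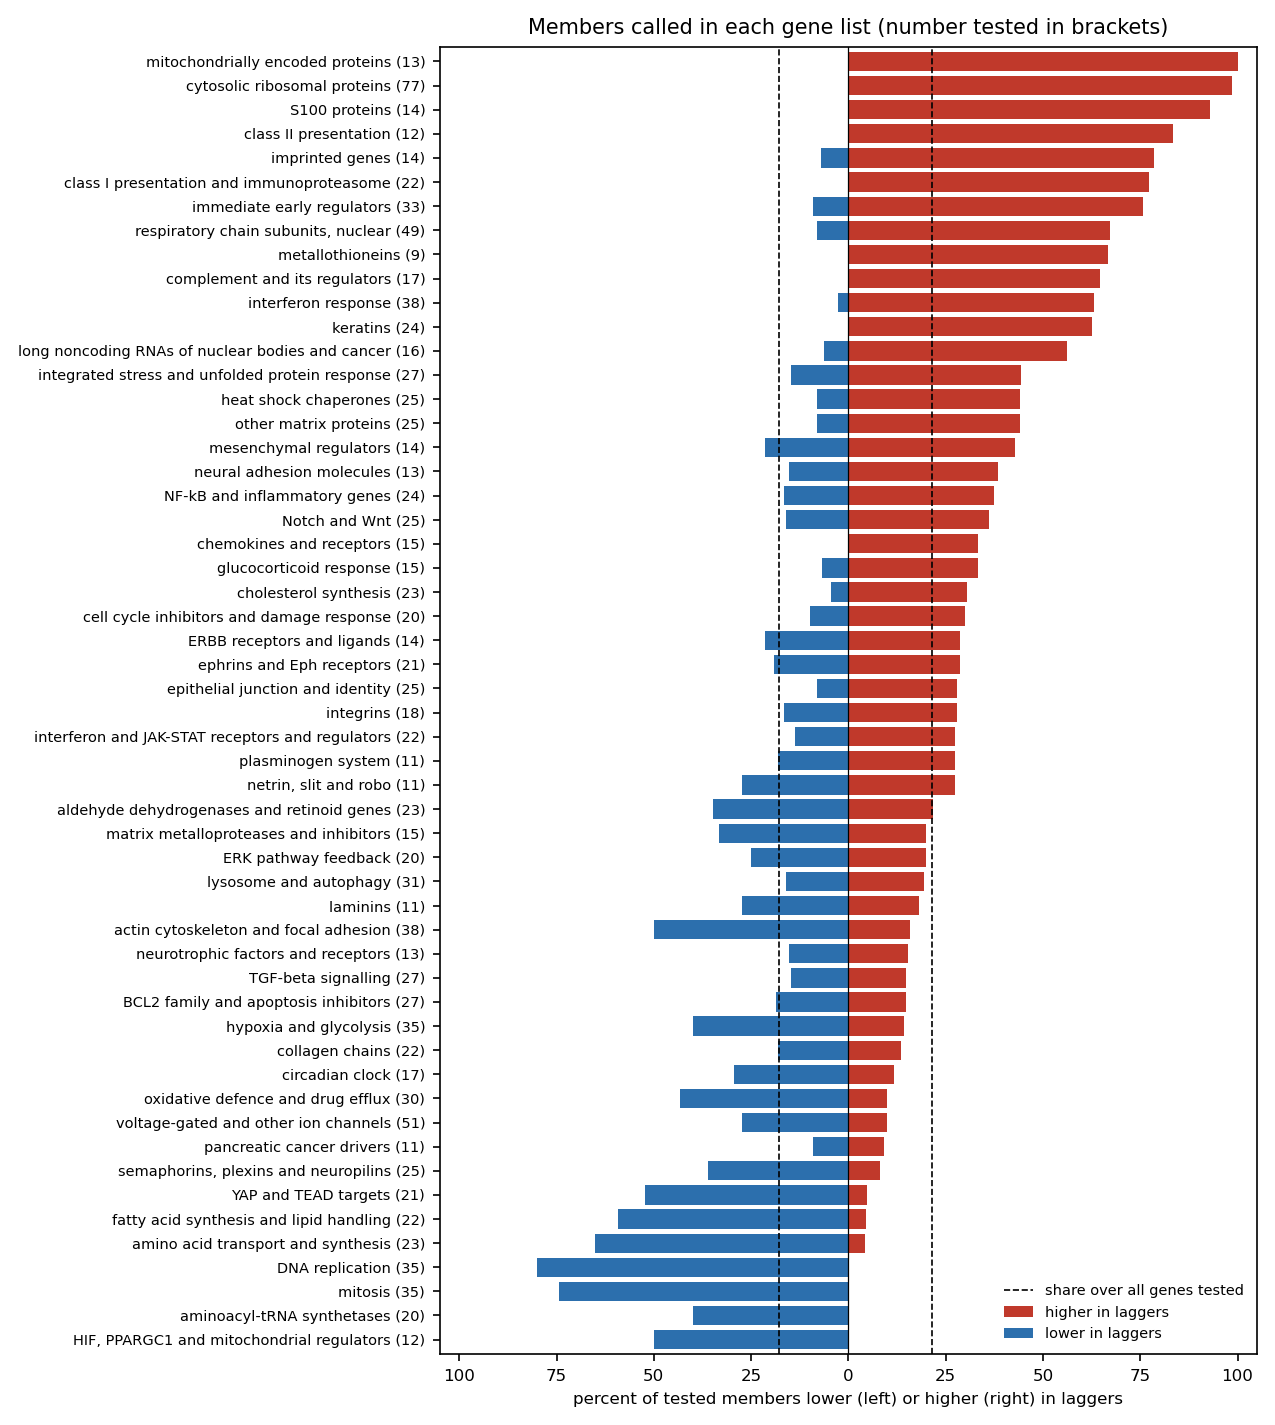
Percent of tested members of each gene list with at least 9 tested genes that fell (left, blue) or rose (right, red) in laggers relative to the parental line, with the number tested in brackets. Dashed lines mark the shares over all genes tested, 17.8% lower and 21.5% higher. Mitochondrially encoded, ribosomal and S100 genes stand at the top, and replication and mitosis genes near the bottom.

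Signals directed at nerves were mixed. The ephrin, netrin, neurotrophic factor and ERBB lists had shares near those over all genes tested (21.5% higher and 17.8% lower). Of 25 semaphorins, plexins and neuropilins, 9 fell, 2 rose and 14 did not pass, a median of -0.45, or 0.02 with length and GC offsets, with which 6 rose and 6 fell. Under upper quartile scaling 5 fell, and without lagger library 1 the median was -0.28. SEMA6B, a transmembrane semaphorin, had 1.84, 0.623 and 3.43 CPM in laggers, against 40.6, 34.4 and 74.2 CPM in the parental line (log2 fold change -4.70 ± 0.60, adjusted p = 2.9e-05). NRP2, a semaphorin and VEGF co-receptor, had 15.4, 5.37 and 25.6 CPM in laggers, against 161, 159 and 181 CPM in the parental line (log2 fold change -3.44 ± 0.46, adjusted p = 4.21e-05). Of 21 ephrins and Eph receptors, 6 rose, 4 fell and 11 did not pass, a median of 0.13. EPHA2, a receptor of ephrin A ligands, had 78.8, 79.5 and 106 CPM in laggers, against 431, 380.3 and 634 CPM in the parental line (log2 fold change -2.45 ± 0.28, adjusted p = 1.1e-05). Its ligand EFNA1 had 32.8, 243 and 113 CPM in laggers, against 12.1, 9.55 and 19.3 CPM in the parental line (log2 fold change 3.25 ± 0.55, adjusted p = 0.000311). Of 11 netrin, slit and robo genes, 3 rose, 3 fell and 5 did not pass, a median of 0.48 that was 0.18 without lagger library 3. NEO1, the netrin and repulsive guidance molecule receptor neogenin, had 9.64, 17.9 and 19.9 CPM in laggers, against 3.38, 3.45 and 3.18 CPM in the parental line (log2 fold change 2.24 ± 0.27, adjusted p = 1.78e-05).

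Of 13 neurotrophic factors and receptors, 2 rose, 2 fell and 9 did not pass, a median of -0.20 that was 0.02 without lagger library 1, -0.07 without library 2 and -0.50 without library 3. With the replicate block 1 rose. GDNF, a ligand of the RET receptor that is known to draw pancreatic cancer cells towards nerves, had 1.80, 2.01 and 2.73 CPM in laggers, against 0, 0 and 0 CPM in the parental line, at least 74.9-fold higher (adjusted p = 0.000509). Its level was low, at 119 counts over the 3 laggers. Of 13 neural adhesion molecules, 5 rose, 2 fell and 6 did not pass, a median of 1.32. CADM2, a synaptic adhesion molecule, had 1.70, 5.94 and 8.19 CPM in laggers, against 0.0995, 0.0511 and 0.0370 CPM in the parental line (log2 fold change 6.22 ± 0.71, adjusted p = 9.09e-06). L1CAM, a neural adhesion molecule that MiaPaCa-2 expresses, had 24.99, 44.8 and 50.7 CPM in laggers, against 71.3, 82.8 and 130.4 CPM in the parental line (log2 fold change -1.24 ± 0.33, adjusted p = 0.00693). Of 14 ERBB receptors and ligands, 4 rose, 3 fell and 7 did not pass, a median of 1.21 that was -0.01 without lagger library 1, with 2 rising. HBEGF, a ligand of EGFR, had 27.4, 43.1 and 39.6 CPM in laggers, against 10.7, 8.07 and 9.06 CPM in the parental line (log2 fold change 1.98 ± 0.31, adjusted p = 0.000135).

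Lists whose shares lay near those over all genes are described by their members' values only. Among them are the collagen, integrin, laminin, ephrin, netrin, plasminogen, neurotrophic factor, ERBB, TGF-beta, ERK feedback, BCL2 family and lysosome lists. Of 27 TGF-beta pathway genes, 4 rose, 4 fell and 19 did not pass, a median of 0.07, and without lagger library 2, 1 fell with a median of 0.24. SMAD3, a signal transducer of the pathway, had 43.4, 18.9 and 33.3 CPM in laggers, against 163, 169.6 and 194 CPM in the parental line (log2 fold change -2.46 ± 0.34, adjusted p = 5.42e-05). BAMBI, a decoy receptor, had 5.53, 26.1 and 48.3 CPM in laggers, against 2.07, 1.94 and 2.29 CPM in the parental line (log2 fold change 3.66 ± 0.59, adjusted p = 0.000211). Of 25 Notch and Wnt genes, 9 rose, 4 fell and 12 did not pass, a median of 1.38, which was 0.61 without lagger library 1, 0.56 without library 2 and -0.41 without library 3. HES1, a Notch target, had 159, 332 and 368 CPM in laggers, against 12.8, 9.73 and 15.7 CPM in the parental line (log2 fold change 4.49 ± 0.37, adjusted p = 4.33e-07). NOTCH2, a receptor, had 158, 157 and 138 CPM in laggers, against 284, 343 and 396 CPM in the parental line (log2 fold change -1.18 ± 0.20, adjusted p = 0.000252). Of 20 genes of ERK feedback, 4 rose, 5 fell and 11 did not pass, a median of -0.02, with 8 rising under upper quartile scaling. ETV4, an ETS factor downstream of ERK, had 43.6, 29.3 and 78.4 CPM in laggers, against 162, 146 and 247 CPM in the parental line (log2 fold change -1.88 ± 0.33, adjusted p = 0.000397).

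Of 15 genes of the glucocorticoid response, 5 rose, 9 did not pass and 1 fell, a median of 1.05, with 9 rising under upper quartile scaling. TSC22D3, the leucine zipper gene GILZ, had 23.6, 37.8 and 56.3 CPM in laggers, against 1.67, 2.20 and 0 CPM in the parental line (log2 fold change 4.89 ± 0.74, adjusted p = 0.000113). The receptor NR3C1 had 241, 166 and 100.1 CPM in laggers, against 332, 415 and 328 CPM in the parental line (log2 fold change -1.09 ± 0.27, adjusted p = 0.0049). Of 17 clock genes, 2 rose, 5 fell and 10 did not pass, a median of -0.62. BHLHE40, a clock repressor also known as DEC1, had 187, 285 and 352 CPM in laggers, against 29.5, 31.2 and 29.9 CPM in the parental line (log2 fold change 3.19 ± 0.27, adjusted p = 5.91e-07). ARNTL, the core activator BMAL1, had 7.28, 7.81 and 4.06 CPM in laggers, against 18.8, 17.9 and 21.6 CPM in the parental line (log2 fold change -1.599 ± 0.29, adjusted p = 0.000482). PER1 had 27.8, 66.6 and 63.4 CPM in laggers, against 24.3, 30.2 and 60.3 CPM in the parental line, with overlapping groups (adjusted p = 0.311).

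Imprinted genes, expressed from the copy of 1 parent and many of them most active in fetal tissue, rose in laggers. Of 14 tested, 11 rose, 1 fell and 2 did not pass, a median of 3.06. MEST on chromosome 7, a hydrolase-like gene, had 12510, 8786 and 8327 CPM in laggers, against 1130, 1238 and 976 CPM in the parental line (log2 fold change 3.15 ± 0.28, adjusted p = 8.48e-07). KCNQ1OT1, a noncoding RNA that silences its neighbours, had 53.1, 85.3 and 60.9 CPM in laggers, against 7.39, 4.77 and 5.03 CPM in the parental line (log2 fold change 3.53 ± 0.41, adjusted p = 1.17e-05). H19 on chromosome 11 had 35.6, 222 and 141 CPM in laggers, against 5.95, 6.64 and 9.14 CPM in the parental line (log2 fold change 4.20 ± 0.64, adjusted p = 0.000133). Its neighbour IGF2 had 16.2, 192 and 162 CPM in laggers, against 11.8, 10.1 and 25.5 CPM in the parental line (log2 fold change 2.97 ± 0.78, adjusted p = 0.0071), with library 1 inside the parental range. RTL1 on chromosome 14 had 4.25, 52.0 and 25.5 CPM in laggers, against 0.0249, 0.0255 and 0.0370 CPM in the parental line, a ratio of 969-fold, with a 95% counting interval of 331 to 4705, or 454-fold without library 2 (adjusted p = 0.000128). The read counting is not stated to use strand and the kit does not mark it, so RTL1, KCNQ1OT1 and IGF2, which overlap other transcripts, cannot be told from their antisense partners.

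Of 23 aldehyde dehydrogenase and retinoid genes, 5 rose, 8 fell and 10 did not pass, a median of 0.04 that was 0.45 without lagger library 1 and -0.18 without library 2. TGM2, a transglutaminase induced by retinoic acid, had 137, 51.6 and 164 CPM in laggers, against 1729, 1610 and 2840 CPM in the parental line (log2 fold change -4.13 ± 0.43, adjusted p = 4.06e-06). ALDH1A3, which makes retinoic acid, had 12.1, 8.38 and 38.5 CPM in laggers, against 201, 229.6 and 208 CPM in the parental line (log2 fold change -3.45 ± 0.79, adjusted p = 0.00284). RARRES3, a retinoid-responsive phospholipase, had 96.8, 25.3 and 21.5 CPM in laggers, against 1.74, 1.10 and 0.925 CPM in the parental line (log2 fold change 5.24 ± 0.69, adjusted p = 3.71e-05). Of 16 long noncoding RNAs, 9 rose, 1 fell and 6 did not pass, a median of 1.21, or 0.75 without lagger library 2. MALAT1, a nuclear speckle RNA, had 2944, 3162 and 787 CPM in laggers, against 203, 346 and 165 CPM in the parental line (log2 fold change 3.27 ± 0.54, adjusted p = 0.000238). NEAT1, the scaffold of paraspeckles, had 150.1, 262 and 116 CPM in laggers, against 36.0, 38.5 and 42.5 CPM in the parental line (log2 fold change 2.18 ± 0.39, adjusted p = 0.000426).

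Of 11 pancreatic cancer driver genes, 1 rose, 1 fell and 9 did not pass, a median of 0.18. GATA6, a transcription factor of the classical subtype of the disease, had 22.0, 20.6 and 129.8 CPM in laggers, against 1.07, 0.460 and 2.40 CPM in the parental line (log2 fold change 5.48 ± 0.78, adjusted p = 6.83e-05), with library 3 far above the other laggers, while MYC had 623, 960.4 and 1217 CPM in laggers, against 675, 635 and 888 CPM in the parental line and did not pass (adjusted p = 0.185). Of 27 BCL2 family members and apoptosis inhibitors, 4 rose, 5 fell and 18 did not pass, a median of 0.06. BCL2L1, a survival factor, had 32.8, 28.9 and 56.1 CPM in laggers, against 95.2, 85.1 and 114 CPM in the parental line (log2 fold change -1.32 ± 0.25, adjusted p = 0.000772). PMAIP1, the death promoter NOXA, had 55.0, 52.9 and 29.4 CPM in laggers, against 12.4, 15.4 and 9.17 CPM in the parental line (log2 fold change 1.89 ± 0.38, adjusted p = 0.00102). Of 31 lysosome and autophagy genes, 6 rose, 5 fell and 20 did not pass, a median of 0.03, and without lagger library 1, 2 fell with a median of 0.18. GABARAPL1, a protein of autophagosome membranes, had 68.2, 87.0 and 59.7 CPM in laggers, against 17.6, 14.0 and 13.7 CPM in the parental line (log2 fold change 2.25 ± 0.19, adjusted p = 5.31e-07). The protease CTSL had 229, 143 and 165 CPM in laggers, against 680.0, 623 and 503 CPM in the parental line (log2 fold change -1.75 ± 0.24, adjusted p = 5.79e-05). Of 51 ion channels, 5 rose, 14 fell and 32 did not pass, a median of -0.63 that was -0.32 without lagger library 1. KCNK3, an acid-sensitive potassium channel, had 8.88, 84.9 and 95.4 CPM in laggers, against 1.74, 1.81 and 5.14 CPM in the parental line (log2 fold change 4.46 ± 0.88, adjusted p = 0.000948).

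The 3 lagger libraries differed among themselves in sets of genes that 1 library carried, each at 20 CPM or more and at least 10 times higher than in the other laggers. There were 23 such genes in library 1, 15 in library 2 and 10 in library 3, given here as a description with no test of the libraries. Among the genes of library 1, PELI1, an adaptor ligase of innate signalling, was at 201, 11.6 and 8.89 CPM and PSMB8, an immunoproteasome subunit, at 123, 2.73 and 5.95 CPM. IL8, a neutrophil chemokine, had 134, 9.34 and 13.0 CPM in laggers, against 11.7, 18.6 and 6.70 CPM in the parental line, so that only library 1 was above every parental library. FGF2 had 90.9, 3.02 and 7.07 CPM in laggers, against 19.9, 26.2 and 15.7 CPM in the parental line, with libraries 2 and 3 below it. Without library 1, PELI1 had a log2 fold change of 0.87, adjusted p = 0.0622, against 3.74 with it.

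Library 2 carried MB, myoglobin, at 3.26, 331 and 24.1 CPM, LY6D, a surface protein of keratinocytes, at 17.2, 265 and 15.4 CPM and CALML3, a calmodulin-like protein, at 0.567, 60.3 and 2.24 CPM. It also carried FBLN2, a matrix fibulin, at 0, 51.6 and 2.66 CPM, whose log2 fold change against the parental line was 7.71 with it and, without it, 3.92, adjusted p = 0.136. Library 3 carried the hyaluronan synthase HAS3 at 5.34, 4.17 and 57.3 CPM. HAS3 had a log2 fold change of 3.28 with library 3 and, without it, 1.11, adjusted p = 0.238. DUOX1, an oxidase of epithelial surfaces, was at 0.850, 1.87 and 48.5 CPM in laggers, with a log2 fold change of 5.40 and, without library 3, 1.81, adjusted p = 0.0858. TAGLN, a smooth muscle actin binder, had 1.56, 4.26 and 50.4 CPM in laggers, against 7.89, 6.18 and 10.2 CPM in the parental line, with libraries 1 and 2 below the parental line.

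**Figure D5:**
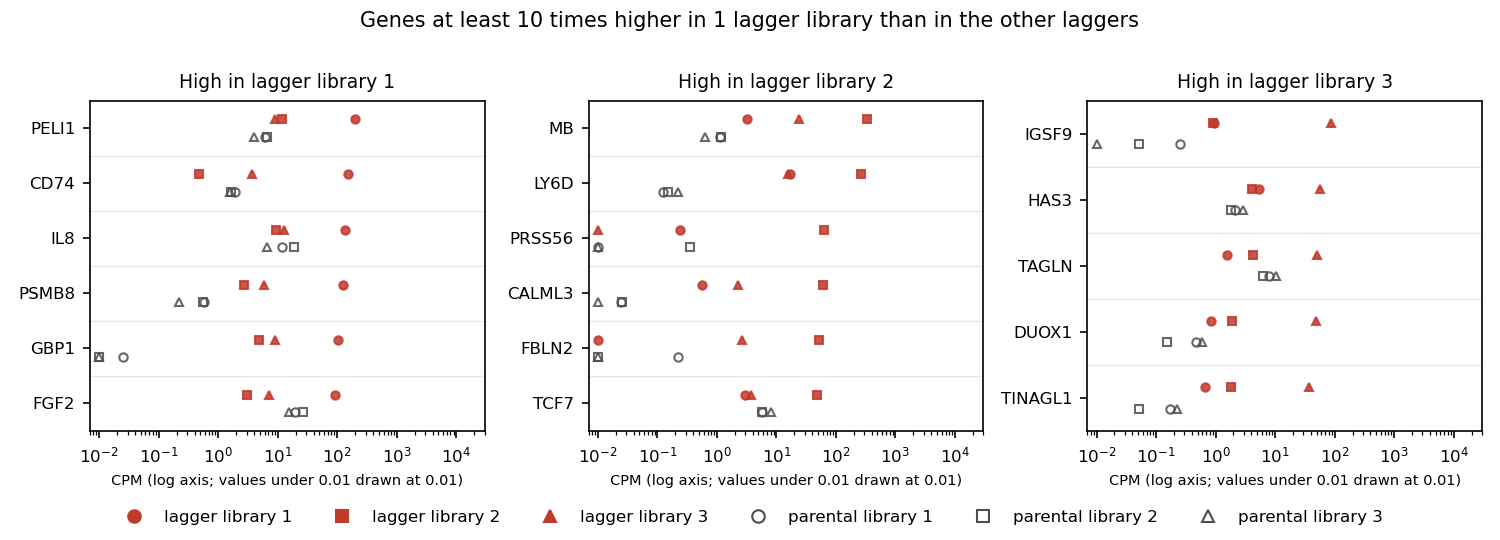
Level of up to 6 genes with the highest level among those carried by 1 lagger library, on a log axis of CPM, with a marker shape for each library, laggers filled and drawn above the parental libraries. Laggers 1, 2 and 3 have 201, 11.6 and 8.89 CPM of PELI1, 3.26, 331 and 24.1 CPM of MB and 5.34, 4.17 and 57.3 CPM of HAS3.

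Set against passage 1 leaders, the other cells collected at the same passage, few genes of laggers passed the same test. At an adjusted p under 0.05, 0.0618% of genes tested changed, 7 higher and 3 lower, and 2338 genes had an unadjusted p under 0.05. Both recovered groups were compared with the same 3 parental libraries, so their differences from the parental line are not independent. Of the genes above, HSPA6 had 1839 ± 714 CPM in laggers and 429 ± 126 CPM in leaders, a log2 difference of 2.10 ± 0.36 (adjusted p = 0.0395), and BAG3 had 649 ± 92.1 CPM in laggers and 209 ± 31.3 CPM in leaders, a difference of 1.64 ± 0.21 (adjusted p = 0.011). KRT5 had 335 ± 237 CPM in laggers and 647 ± 450.1 CPM in leaders (-0.95 ± 0.66, adjusted p = 0.476), and MEST had 9874 ± 2293 CPM in laggers and 13290 ± 960.3 CPM in leaders (-0.43 ± 0.26, adjusted p = 0.429), neither past the threshold (SD, n = 3 each).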

How the data were processed

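Gene counts of 18 libraries were deposited as 1 table. Per the submitters' processing notes, the authors' tools were cutadapt 1.6, STAR 2.5.0a, HTSeq 0.5.3 and DESeq 1.22.1; the deposited values were used as raw counts, not normalized, and their genome build and gene annotation are not stated in those notes. Per the labels' protocols, 2 ng of RNA were amplified for 12 cycles before paired sequencing, without strand marking. Entries that name no gene took 48.7% to 56.3% of all entries in laggers and 27.6% to 34.7% in the parental line, and were left out.

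The 18 libraries were fitted together in edgeR 4.0.16 (R 4.3.3) with a mean per group, TMM scaling and the low-count filter of filterByExpr, which left 16187 of 57445 genes. Every p-value adjusted by Benjamini-Hochberg comes from its quasi-likelihood test over all genes tested, and the SE is the fold change over the root of F. Levels are CPM on TMM-scaled library sizes. A gene with no count in a group was set against a floor of 3 counts over that group, and intervals cover counting error only. In counts simulated for laggers against the parental line, over 16187 genes, 100 genes were changed 2-fold and 100 were changed 4-fold. Of these, 13% and 62% were recovered, with 3 false calls. In the data 39.3% of genes were called, and the adjustment of p-values depends on that share. The simulated rates therefore do not carry over to the data.

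Named genes were the 12 rising and 12 falling with the smallest p that averaged 20 CPM or more in their higher group without overlap, up to 6 per list by p, and up to 6 by level among genes at least 10 times higher in 1 lagger library. Further list members were named for their role or after their values had been seen, and members and lists were chosen with earlier results of these data known. Some genes that the rule names are not reported here. Deviations of same-numbered laggers and parental libraries from their group means correlated at 0.106, 0.127 and 0.401 across genes. Lagger library 1 deviated most like parental library 2, while lagger libraries 2 and 3 matched their own numbers best. The numbers were read as pairs in a second fit with the replicate number as a block, although the labels do not say what a number marks. Alternatives were DESeq2 1.42.0, limma-voom (limma 3.58.1), other scalings, no filter, fits of the compared groups only, each library left out and, chosen after seeing the data, offsets for transcript length and GC content from GENCODE 29.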

Additional observations from a re-analysis of the deposited data

Results flagged for a closer look

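The 10 genes that passed the test between laggers and passage 1 leaders, collected at the same passage, are given as log2 differences. Those higher in laggers were PARP3 (1.15), AMOTL2 (2.08), BAG3 (1.64), RUNX1 (1.36), SPSB1 (1.76), HSPA6 (2.10) and TRIM26 (1.20). Those lower in laggers were ERBB3 (-4.96), a receptor of neuregulins, AGR2 (-5.90), a secreted disulfide isomerase, and the peroxidase GPX8 (-1.39). Adjusted p-values by edgeR lay between 0.011 for BAG3 and 0.0395. ERBB3 had 0.127 ± 0.120 CPM in laggers and 4.46 ± 4.53 CPM in leaders, and AGR2 had 0.557 ± 0.280 CPM in laggers and 32.9 ± 26.3 CPM in leaders (SD, n = 3 each). AMOTL2, a YAP target, had 177 ± 43.9 CPM in laggers and 41.9 ± 17.9 CPM in leaders.

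Outside the gene counts, entries aligned to more than one place averaged 30.8% of all entries in laggers and 15.1% in the parental line. Their part in the gene results was not tested.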

How the results depend on the processing

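Against the parental line, 6363 genes changed. The other settings gave 5257 to 7130 genes, with 1 exception: a fit of the compared groups only gave 3355. Leaving out 1 library gave 5257 to 6392, and 3995 to 4771 of those with a change of 2-fold or more (4608 with all libraries). Of 372 genes that passed and were taken by the naming rule or named in the text, 316 passed in every setting that tested them. Part of this set was chosen after values had been seen. HLA-DRA ranged between -0.72 without lagger library 1 and 6.03 without parental library 1. Of 128 counts of list members, many of them small, 25 moved by over 1.5 times under upper quartile scaling, 31 with length and GC offsets, 45 in the fit of the compared groups only and 7 to 21 with 1 library left out. The replicate block gave 6124 genes. Beside the list counts given in the text, it moved by over 1.5 times those of pregnancy-specific glycoproteins, leukocyte markers and muscle markers. It ended the calls of 6 of the 372 genes and added those of PSPN and DES, none of them given with values here. No other call of the set changed.

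Against leaders, the 10 calls depended on the settings: DESeq2 gave 372, limma-voom 27, no low-count filter 257, length and GC offsets 69, the replicate block 3, and the block with offsets 39. A fit of the compared groups only gave 0, with 1197 genes at an unadjusted p under 0.05. Leaving out 1 library gave 0 to 52, with 52 without lagger library 1, 1 without lagger library 3, 3 without leader library 2, and 0 by edgeR without lagger library 2 (2210 at an unadjusted p under 0.05), leader library 1 (1882) or leader library 3 (1984). Same-numbered laggers and leaders did not deviate together (0.022, -0.122 and 0.025). The causes were not tested. Lagger libraries held fewer counts than parental ones, which limits low genes most.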

Other observations

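Classes of transcript moved unequally. Of 617 long intergenic noncoding RNAs tested, 233 rose and 35 fell in laggers, a median log2 fold change of 1.23, and of 798 antisense RNAs, 231 rose and 24 fell, a median of 0.93. Of 757 processed pseudogenes, 189 rose and 24 fell, but with length and GC offsets 60 rose and 131 fell, and the median turned from 0.68 to -0.22. Of 13035 protein-coding genes, 2576 rose and 2741 fell, a median of -0.04. Since the counts carry no strand, antisense RNAs cannot be told from the genes they overlap.

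Chromosome 6, which carries the HLA genes, had 287 of 815 tested genes rising (35.2%) and 61 falling (7.48%), a median log2 fold change of 0.53, or 0.43 with length and GC offsets. Chromosomes with few tested genes, such as the mitochondrial one, were left out. Among the rest, the next highest share of rising genes was 26.5% on chromosome 8. Genes of chromosome 6 inside and outside the HLA region were not counted apart.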
